A study of Mus musculus with 8 samples.

Results

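The mitochondrial carriers of the Slc25 family were examined in soleus muscle of control and Dnm2 +/K562E mice. Members were all protein-coding genes of the count files whose symbol begins with Slc25a and a digit, together with Ucp2 and Ucp3, whose symbols do not carry the family name. The rule gave 49 of 22880 genes, and 41 of the 49 passed the filter on low counts, as did 14001 genes in all. Dnm2 encodes dynamin 2, a GTPase that pinches vesicles off membranes, and the K562E change lies in its lipid-binding domain and causes a peripheral neuropathy in people. The samples were soleus muscles of 4 control mice (Dnm2 +/+) and 4 Dnm2 +/K562E mice, all male, 2 months old and on the C57BL/6 background, given as C57bl/6 J in the study's methods. The mutation was knocked in at the endogenous locus, so that every cell type of the muscle carried 1 mutant and 1 normal allele. A loxP site left over from the targeting remained in an intron of the mutant allele. The study asked how the transcriptome of the whole muscle differed between the genotypes.

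Slc25 proteins carry small molecules across the inner mitochondrial membrane, which is otherwise almost impermeable to charged solutes. They exchange ADP for ATP, bring in phosphate, shuttle reducing equivalents as malate, aspartate and glutamate, and deliver acylcarnitines, amino acids, cofactors and iron to the matrix. In a slow oxidative muscle such as the soleus they link the ATP made by the respiratory chain to the contracting fibre. Several substrates are served by a pair of paralogous carriers, of which 1 is typical of muscle fibres and the other is found more widely.

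Each carrier is built from repeats of a similar module, and each repeat holds a short signature, with a proline, an acidic and a basic residue at a fixed spacing. A search of the coding sequences for codons of this signature found 3 matches in 29 members, 2 in 12 members, 1 in 5 members and 0 in 3 members. Stretches of 48 bases around a match within a single exon are printed for 3 of the paralogous pairs whose balance differed between the genotypes. They show how much sequence tells the partners apart. Slc25a23 with Slc25a24 and Slc25a37 with Slc25a28 also differed and are not printed. The stretches were read from the GRCm38 genome in the direction of transcription, and capitals mark the 18 bases of the signature.
Slc25a4 (chr8:46209191-46209238, minus strand): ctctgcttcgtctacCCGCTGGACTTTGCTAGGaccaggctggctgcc
Slc25a5 (chrX:36797113-36797160, plus strand): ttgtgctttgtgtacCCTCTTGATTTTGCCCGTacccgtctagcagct
Slc25a12 (chr2:71296768-71296815, minus strand): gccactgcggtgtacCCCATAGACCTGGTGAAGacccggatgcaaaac
Slc25a13 (chr6:6109284-6109331, minus strand): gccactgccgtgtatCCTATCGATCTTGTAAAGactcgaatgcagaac
Ucp3 (chr7:100480534-100480581, plus strand): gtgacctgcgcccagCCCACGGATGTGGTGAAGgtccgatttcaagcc
Ucp2 (chr7:100498131-100498178, plus strand): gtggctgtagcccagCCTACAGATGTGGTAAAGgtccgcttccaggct

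Slc25a4 and Slc25a5 differed at 15 of these 48 bases, Slc25a12 and Slc25a13 at 10, and Ucp3 and Ucp2 at 12. Over the whole coding sequence, identity was 77.4%, 70.5% and 75.2% in these pairs, and no stretch of 31 bases was shared between the coding sequences of either partner in any of the 7 pairs compared below. Slc25a5 was nevertheless a gene of uncertain count, since 49.4% of the 31-base stretches of its transcripts occur in other annotated genes, and 30.4% of all its stretches occur in the single gene Gm5560. The next highest shares among the members were 8.83% for Slc25a20, 7.78% for Slc25a36 and 7.72% for Slc25a37.

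Total counts per mouse ranged from 33407430 to 48832814. Levels are given as normalised CPM, the share of a gene in the counts of its library after scaling by trimmed mean of M values (TMM), and all fold changes are log2 of Dnm2 +/K562E over control. The TMM factors were 0.9145 to 0.9594 in controls and 1.037 to 1.103 in mutants, so that the scaling itself differed between genotypes. The mutated gene Dnm2 was at 66.3 ± 4.74 CPM (SD, n = 4) in controls and 73.4 ± 2.43 CPM (SD, n = 4) in mutants, with an adjusted p of 0.0909 in edgeR's quasi-likelihood test. Markers of several cell types differed between genotypes. All 7 macrophage markers were higher in mutants, with summed levels of 72.8 to 135.5 CPM in controls and 179.3 to 295.6 CPM in mutants. All 4 fibroblast markers were higher too, with sums of 1757 to 2671 CPM and 3735 to 4847 CPM. The 5 soleus fibre markers were all lower at an adjusted p under 0.05, and 2 of them passed the fold change threshold as well, with sums of 48370 to 54850 CPM in controls and 30750 to 35390 CPM in mutants. Of the 4 fast fibre markers, Myh4, Pvalb and Tnnt3 were lower, with log2 fold changes of -4.63, -3.34 and -0.69, and Myh1 was at -0.13 (adjusted p = 0.257). Their sums were 12690 to 15230 CPM in controls and 8310 to 10120 CPM in mutants. Control 4 weighed heavily in the first 2 values. Myh4 was at 3134 CPM there, beside 162.8 to 426.4 CPM in the other controls, and Pvalb at 946.1 CPM, beside 341.5 to 469.1 CPM. The mutants lay below every control for both genes. Both endothelial markers were lower at the adjusted p alone, with log2 fold changes of -0.26 and -0.40. The part of fibre and endothelial transcripts in the lower carriers was not tested. In whole muscle, fewer cells of a type and less RNA per cell cannot be told apart, and this holds for every value that follows.

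Among the 41 tested carriers, 6 were lower and 3 were higher in Dnm2 +/K562E muscle at an adjusted p under 0.05 and an absolute log2 fold change of at least 0.58. These are 14.6% and 7.32% of the tested carriers, beside 7.85% and 12.9% of all tested genes. At the adjusted p alone, 17 carriers (41.5%) were lower and 3 (7.32%) were higher, beside 21.7% and 22.2% of all tested genes. In 15 carriers (36.6%) every mutant lay below every control, and in 3 (7.32%) every mutant lay above, beside 20.5% and 20.6% of all tested genes. The median log2 fold change was -0.22 over the tested carriers and 0.01 over all tested genes.

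Scaling by library size alone, without TMM factors, moved the median of all tested genes up to 0.22 and that of the carriers to -0.01, a shift of similar size in both. Under that scaling only Slc25a3 kept both thresholds among the 6 lower carriers, while Ucp2, Slc25a24 and Slc25a13 all remained higher, and 8 carriers were lower and 10 higher at the adjusted p alone.

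**Figure D1:**
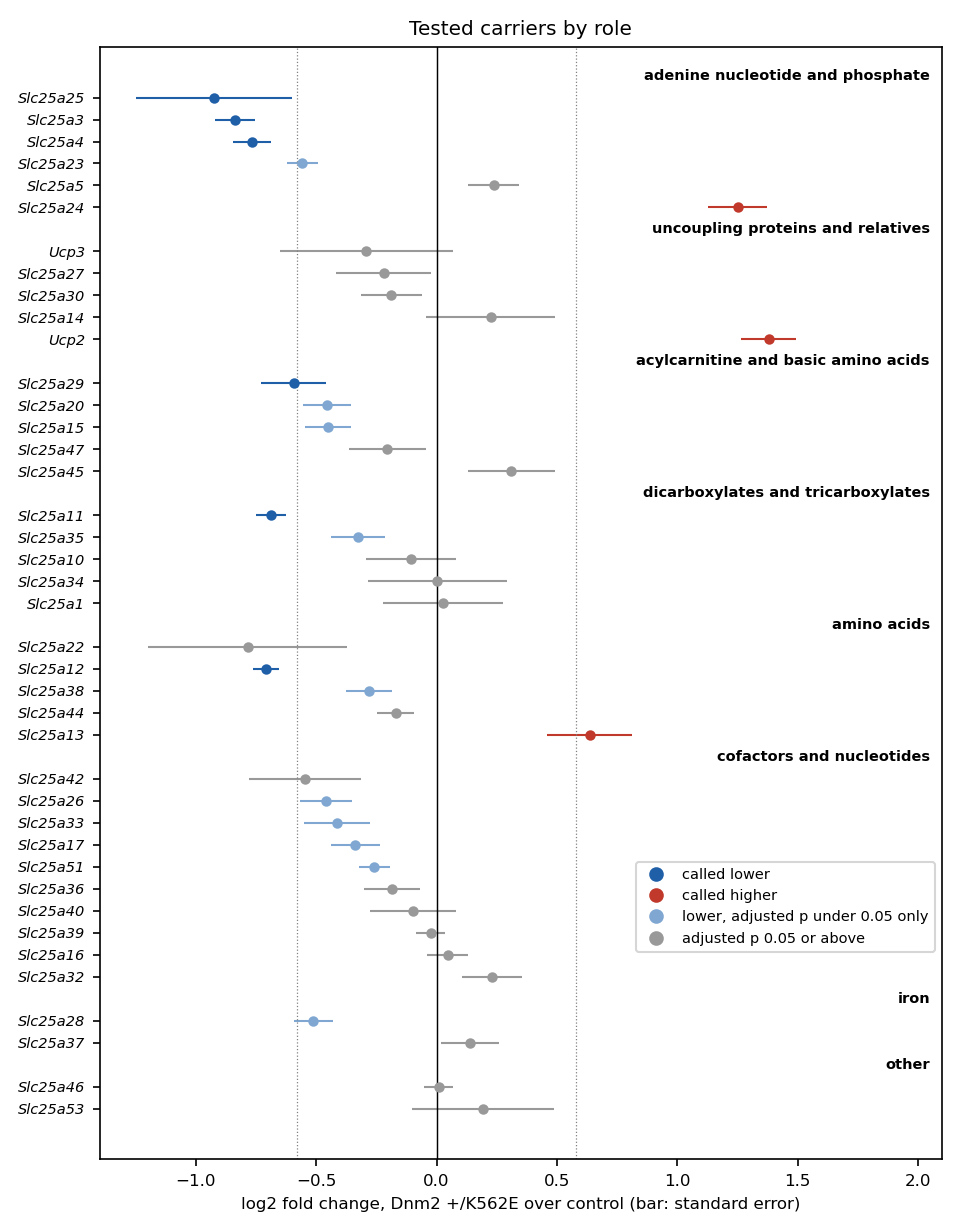
Log2 fold change of Dnm2 +/K562E over control for 40 of the 41 tested carriers, grouped by the substrate they carry, with points for the estimates, bars for standard errors and dotted lines at the threshold of 0.58 in either direction. Dark blue marks the 6 carriers called lower, red the 3 called higher, and light blue the carriers below the adjusted p threshold only.

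Per kilobase of transcript, the most abundant carriers of soleus over all 8 mice were, in order, Slc25a4, Slc25a3, Slc25a11, Slc25a5 and Slc25a12. With the length of all annotated exons in place of the principal transcript, the same 5 genes came in the order Slc25a4, Slc25a11, Slc25a3, Slc25a12 and Slc25a5, and the place of Slc25a5 rests on its uncertain count. Slc25a4 alone made up 62.3% ± 0.883 (SD, n = 4) of the summed carrier level per kilobase in controls and 57.97% ± 1.88 (SD, n = 4) in mutants. The summed level of the 49 members was 3254 ± 187 CPM per kilobase in controls and 2053 ± 101 in mutants (SD, n = 4 each), with 2976 in the lowest control and 2193 in the highest mutant. The 6 lower carriers held 86.3% ± 1.83 of that sum in controls and 79.98% ± 0.922 in mutants, and the 3 higher carriers 0.437% ± 0.0543 and 1.72% ± 0.211 (SD, n = 4 each). Of the 5 most abundant carriers, all but Slc25a5 were among the 6 lower ones.

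Carriers of adenine nucleotides and phosphate included 3 of the 6 lower genes and 1 of the 3 higher ones. Slc25a4 (chr8:46206797-46211284, minus strand) encodes the ADP/ATP carrier of heart and skeletal muscle, which exports the ATP made in the matrix. Its level was 3982, 3928, 4138 and 3559 CPM in controls 1 to 4 and 2161, 2216, 2232 and 2564 CPM in mutants 1 to 4. No mutant reached the lowest control, and the log2 fold change was -0.77 (SE 0.08, adjusted p = 2.49e-05, edgeR).

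Slc25a3 encodes the phosphate carrier, which supplies the other substrate of ATP synthesis. It was at 745.9, 918.1, 854.6 and 780.8 CPM in controls and at 414.9, 493.0, 483.5 and 454.2 CPM in mutants. The mutants again lay wholly below the controls, with a log2 fold change of -0.84 (SE 0.08, adjusted p = 1.98e-05, edgeR). Slc25a5, the ADP/ATP carrier of proliferating and non-muscle cells, did not follow Slc25a4. It was at 64.7, 77.9, 70.6 and 70.5 CPM in controls and at 95.5, 71.3, 73.4 and 94.2 CPM in mutants. Mutants 1 and 4 lay above all controls while mutants 2 and 3 lay among them, and the log2 fold change of 0.24 (SE 0.11) had an adjusted p of 0.0916.

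The calcium-regulated ATP-Mg/phosphate carriers adjust the adenine nucleotide pool of the matrix, and the 3 tested members moved in different directions. Slc25a23 was at 47.7, 43.5, 46.3 and 44.1 CPM in controls and at 30.1, 31.8, 32.8 and 28.7 CPM in mutants. All mutants were below all controls, and the log2 fold change of -0.56 (SE 0.07, adjusted p = 6.68e-05) missed the fold change threshold. Without control 2, control 4 or mutant 3 it was past that threshold, at -0.58, -0.58 and -0.59. Slc25a24 rose, from 7.54, 10.5, 11.0 and 12.0 CPM in controls to 26.0, 23.8, 23.8 and 24.2 CPM in mutants. The lowest mutant was well above the highest control, with a log2 fold change of 1.25 (SE 0.12, adjusted p = 2.12e-05).

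Slc25a25, the ATP-Mg/phosphate carrier of skeletal muscle, was the most variable of the called carriers. It was at 28.5, 32.3, 41.4 and 35.6 CPM in controls and at 26.5, 8.41, 11.2 and 26.9 CPM in mutants. Mutants 1 and 4 lay just under the lowest control, whereas mutants 2 and 3 were far below. The log2 fold change was -0.92 with an SE of 0.33 and an adjusted p of 0.039. The call was lost in DESeq2, where the adjusted p was 0.069, and when any of controls 2, 3 and 4 or mutants 2 and 3 was left out, where the adjusted p ranged from 0.0619 to 0.0992. The remaining genes of this group, Slc25a31 and Slc25a41, had at most 7 and 4 counts in any mouse and were not tested.

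**Figure D2:**
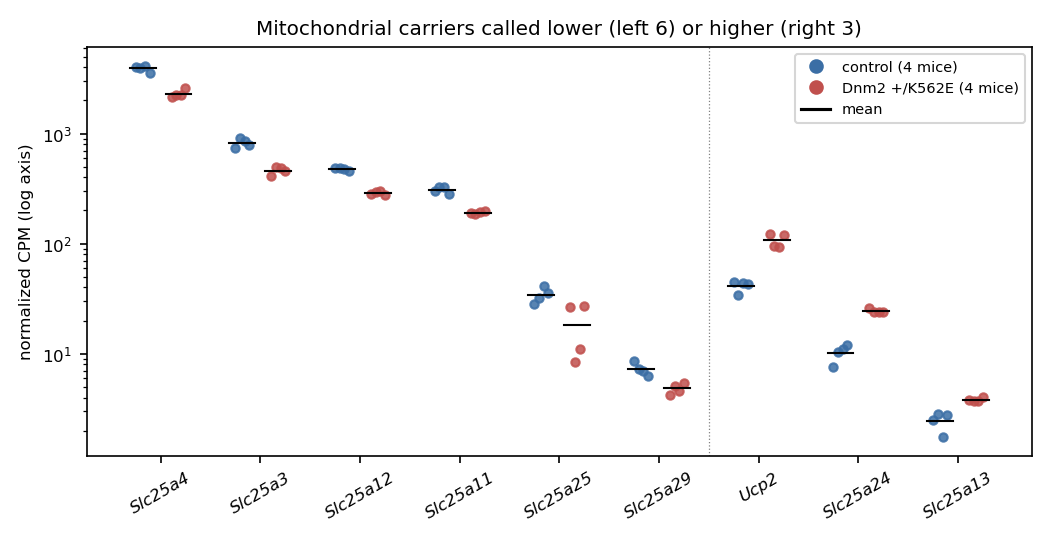
Normalised CPM on a log axis of the 9 called carriers in each mouse, with a point per mouse and a bar at the mean of the 4 mice of each genotype. Slc25a4, Slc25a3, Slc25a12 and Slc25a11 form narrow bands in both genotypes, whereas mutants 2 and 3 lie far below mutants 1 and 4 for Slc25a25.

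Uncoupling proteins dissipate or modulate the proton gradient, and Ucp2 gave the largest fold change among the tested carriers. Ucp2 is expressed in many cell types, macrophages included. It was at 45.0, 34.0, 43.6 and 42.9 CPM in controls and at 121.5, 94.9, 94.2 and 120.3 CPM in mutants. The lowest mutant was above the highest control by a wide margin, with a log2 fold change of 1.38 (SE 0.11, adjusted p = 6.37e-06). The summed macrophage and fibroblast markers were higher in mutants as well, and the part of macrophages or fibroblasts in the levels of Ucp2, Slc25a24 and Slc25a13 was not tested.

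Ucp3, the uncoupling protein of skeletal muscle, lies on the same strand as Ucp2 with 6904 bases between the genes on chromosome 7. It was at 242.3, 74.2, 125.3 and 72.5 CPM in controls and at 75.8, 136.6, 128.2 and 79.1 CPM in mutants. The groups overlapped throughout, control 1 stood far above the others, and the log2 fold change of -0.29 (SE 0.36) had an adjusted p of 0.54. Without control 1 it turned to 0.20 (adjusted p = 0.532). The related Slc25a14, Slc25a27 and Slc25a30 had log2 fold changes of 0.22, -0.22 and -0.19 with adjusted p of 0.527, 0.392 and 0.259. Ucp2 overlaps Dnajb13 on the opposite strand over 305 bases, but Dnajb13 had too few counts to be tested.

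Of the amino acid carriers, the aspartate/glutamate exchangers of the malate-aspartate shuttle changed in opposite directions. Slc25a12 (aralar) is the form of muscle and brain. It was at 483.5, 481.3, 471.6 and 457.2 CPM in controls and at 283.1, 295.9, 300.9 and 277.8 CPM in mutants. Spread within each genotype was small and the groups lay far apart, with a log2 fold change of -0.71 (SE 0.05, adjusted p = 3.76e-06). Slc25a13 (citrin) is the form of liver and many other tissues. It was at 2.5, 2.82, 1.75 and 2.77 CPM in controls and at 3.77, 3.70, 3.72 and 4.05 CPM in mutants, which corresponds to 78 to 159 counts per mouse. Every mutant was above every control, and the log2 fold change was 0.64 (SE 0.18, adjusted p = 0.0132). Without control 3, the lowest of the controls, it was 0.50 and below the fold change threshold.

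The glycine carrier Slc25a38 was lower at the adjusted p alone (log2 fold change -0.28, adjusted p = 0.0332). Slc25a44, which carries branched-chain amino acids, was lower in every mutant than in any control, but its log2 fold change of -0.17 had an adjusted p of 0.0895. The glutamate carrier Slc25a22 was at 134.3 CPM in control 1 and at 28.4 to 44.0 CPM in the other controls, beside 30.4 to 39.8 CPM in mutants, and its log2 fold change of -0.79 carried an SE of 0.41 and an adjusted p of 0.148. Without control 1 it was -0.04 (adjusted p = 0.861). Its paralogue Slc25a18 had at most 11 counts in a mouse and was not tested.

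**Figure D3:**
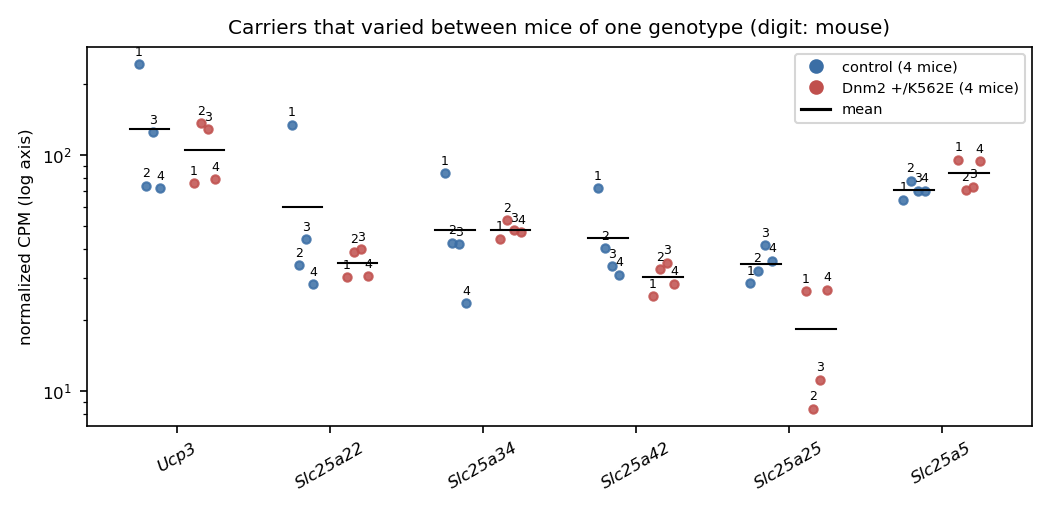
Normalised CPM on a log axis in each mouse for 6 carriers whose mice differed within a genotype, with a point per mouse and a bar at the mean of the 4 mice. Control 1 stands above the other controls for Ucp3, Slc25a22, Slc25a34 and Slc25a42.

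Among carriers of dicarboxylates and tricarboxylates, Slc25a11 was the only one past both thresholds. It encodes the 2-oxoglutarate/malate exchanger, the other carrier of the malate-aspartate shuttle. It was at 280.4 to 326.9 CPM in controls, with control 4 the lowest and control 2 the highest, and at 189.8, 185.5, 193.0 and 196.6 CPM in mutants. The groups were separated by far more than their spread, with a log2 fold change of -0.69 (SE 0.06, adjusted p = 1.27e-05). Rnf167, which overlaps Slc25a11 over 189 bases on the opposite strand, differed by a log2 fold change of -0.01 (adjusted p = 0.916).

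Slc25a35, an orphan carrier, was lower at the adjusted p alone (log2 fold change -0.33, adjusted p = 0.0353). It overlaps Rangrf over 1151 bases on the opposite strand. Rangrf was itself lower in mutants (log2 fold change -0.57, adjusted p = 0.00059), and whether strand was used in the counting is not stated. The citrate carrier Slc25a1, the dicarboxylate carrier Slc25a10 and the orphan Slc25a34 had log2 fold changes of 0.03, -0.11 and 0.00, with adjusted p of at least 0.669. Without control 1 the value of Slc25a34 was 0.41 (adjusted p = 0.0738) and that of Slc25a1 changed sign to -0.06. Slc25a21 had at most 6 counts in any mouse.

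In the group of acylcarnitine and basic amino acid carriers, 3 of 5 tested genes were lower at the adjusted p, beside 21.7% of all tested genes. The carnitine-acylcarnitine translocase Slc25a20, which admits long-chain fatty acids for oxidation, ranged from 100.6 to 138.3 CPM in controls and from 80.2 to 90.8 CPM in mutants. The groups did not overlap, and the log2 fold change of -0.46 (SE 0.10, adjusted p = 0.00401) fell short of the fold change threshold. The ornithine carrier Slc25a15 had nearly the same log2 fold change, -0.45 (adjusted p = 0.00279).

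Slc25a29, a carrier of basic amino acids, was at 8.67, 7.34, 6.97 and 6.27 CPM in controls and at 4.24, 5.07, 4.63 and 5.43 CPM in mutants. The mutants lay below the controls, and the log2 fold change of -0.59 (SE 0.13, adjusted p = 0.00461) was just past the fold change threshold. Leaving out control 1, mutant 1 or mutant 3 brought it to -0.51, -0.54 and -0.57, each short of that threshold. Its neighbour Slc25a47, which begins 162 bases away on the opposite strand of chromosome 12, differed by a log2 fold change of -0.20 (adjusted p = 0.325). Slc25a45 was at 0.31 (adjusted p = 0.186), and Slc25a2 and Slc25a48 had at most 10 and 2 counts in any mouse.

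None of the carriers of cofactors and nucleotides passed both thresholds. Lower at the adjusted p alone were the S-adenosylmethionine carrier Slc25a26 (log2 fold change -0.46), the pyrimidine nucleotide carrier Slc25a33 (-0.41), the peroxisomal carrier Slc25a17 (-0.34) and the NAD carrier Slc25a51 (-0.26). The adjusted p of these 4 ranged from 0.00503 to 0.0314. The coenzyme A carrier Slc25a42 had a log2 fold change of -0.55 and an adjusted p of 0.0806, with control 1 at 72.3 CPM and the other controls at 31.1 to 40.4 CPM. This value depended on single controls. Without control 1 it was -0.22 (adjusted p = 0.173), and without control 4 it was -0.69 with an adjusted p of 0.0298, past both thresholds.

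Slc25a33 was at 17.0, 18.6, 18.9 and 14.3 CPM in controls and at 9.89, 13.6, 12.6 and 15.6 CPM in mutants, where mutant 4 lay above control 4. Slc25a36, the other pyrimidine nucleotide carrier, was at 41.6, 60.6, 52.5 and 63.4 CPM in controls and at 52.2, 46.0, 45.3 and 48.5 CPM in mutants, with overlapping groups (log2 fold change -0.18, adjusted p = 0.227). Without control 1 the log2 fold change of Slc25a36 was -0.30 with an adjusted p of 0.0101. The glutathione carriers did not pass the test. Slc25a39 was at 51.5, 51.2, 51.4 and 53.6 CPM in controls and at 52.6, 48.5, 49.0 and 53.9 CPM in mutants (log2 fold change -0.03, SE 0.06, adjusted p = 0.755). Slc25a40 was at 5.42, 3.77, 4.08 and 5.56 CPM in controls and at 3.94, 5.55, 4.03 and 4.03 CPM in mutants (log2 fold change -0.10, adjusted p = 0.684). The mitochondrial folate carrier Slc25a32 and Slc25a16 had log2 fold changes of 0.23 and 0.05 with adjusted p of 0.154 and 0.687.

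Mitoferrins bring iron into the matrix for heme and iron-sulphur clusters. Slc25a28 (mitoferrin-2), the form found in most tissues, was at 23.3, 21.9, 21.3 and 20.9 CPM in controls and at 13.96, 17.1, 15.4 and 14.8 CPM in mutants. All mutants were below all controls, with a log2 fold change of -0.51 (SE 0.08, adjusted p = 0.000494), short of the fold change threshold. Slc25a37 (mitoferrin-1), the form of red cell precursors, was at 15.8, 13.5, 11.2 and 17.0 CPM in controls and at 15.9, 16.3, 14.6 and 16.4 CPM in mutants, and the groups overlapped (log2 fold change 0.14, adjusted p = 0.385). The 4 erythroid markers were all lower in mutants, with sums of 480.6 to 819.3 CPM in controls and 223.1 to 472.1 CPM in mutants, and their part in the levels of Slc25a37 was not tested.

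The last tested members were Slc25a46, an outer membrane protein (log2 fold change 0.01, adjusted p = 0.928), and Slc25a53 (0.19, adjusted p = 0.624). The 8 untested carriers were Slc25a2, Slc25a18, Slc25a21, Slc25a31, Slc25a41, Slc25a43, Slc25a48 and Slc25a54. None of them exceeded 11 counts in a mouse, and Slc25a54 had 0 counts in all 8 mice. That allows a level of up to 0.0614 to 0.0898 CPM in the single libraries (3 counts, counting error only). These limits are shares of total counts, without TMM factors.

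Because a ratio of carriers within a mouse does not depend on how libraries are scaled, the balance of paired carriers with like roles was compared as well. Of 7 pairs with both partners tested, 5 differed between genotypes without overlap of any mouse (exact two-sided permutation test, p = 0.0286 in each, the smallest that 4 against 4 mice can give, adjusted p = 0.04 over the 7 pairs). The members of these pairs, and the genotype difference of several of them, were known when the ratios were chosen. In each of the 5 pairs a partner on its own also separated the genotypes, so the ratios are not independent of the single-gene results. Among all tested genes, 20.5% lay below and 20.6% above without overlap, and the share among other pairs of genes was not computed.

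The ratio of Slc25a4 to Slc25a5 per kilobase was 39.6, 32.5, 37.8 and 32.5 in controls and 14.6, 20.03, 19.6 and 17.5 in mutants. The ADP/ATP carrier of muscle remained by far the more abundant form, but by a smaller factor, with a log2 ratio lower by a difference of -0.99. The uncertain count of Slc25a5 enters this ratio. For Slc25a12 to Slc25a13 the ratio per kilobase was 94.4, 83.4, 131.8 and 80.8 in controls and 36.7, 39.2, 39.6 and 33.6 in mutants. Aralar still exceeded citrin in every mouse, and the difference of the log2 ratio was -1.36.

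Slc25a23 exceeded Slc25a24 in every control, with ratios per kilobase of 6.45, 4.23, 4.29 and 3.74. In mutants the ratios were 1.18, 1.37, 1.40 and 1.21. The partners came close to parity, and the difference of the log2 ratio, -1.83, was the largest of the 7. The ratio of Ucp3 to Ucp2 per kilobase was 8.77, 3.55, 4.68 and 2.75 in controls and 1.02, 2.34, 2.22 and 1.07 in mutants. Its difference of -1.54 came with the widest spread, with SDs of 0.718 in controls and 0.652 in mutants on the log2 scale, and the highest mutant lay close to the lowest control.

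The ratio of Slc25a37 to Slc25a28 per kilobase moved the other way, from 0.250, 0.227, 0.194 and 0.299 in controls to 0.418, 0.351, 0.350 and 0.410 in mutants, a difference of 0.67 in the log2 ratio. Mitoferrin-2 was the more abundant form in every mouse. Slc25a33 to Slc25a36 differed by -0.26 (exact permutation p = 0.371, adjusted p = 0.433) and Slc25a39 to Slc25a40 by 0.07 (exact permutation p = 0.914, adjusted p = 0.914), with overlapping groups in both. The planned comparison of Slc25a22 with Slc25a18 was not made because Slc25a18 was not tested.

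**Figure D4:**
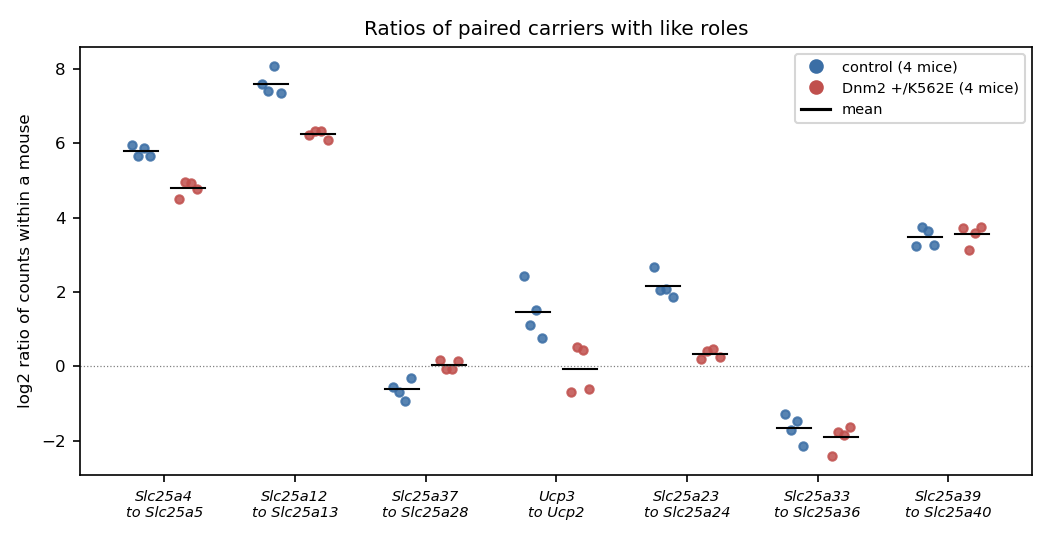
Log2 ratio of the counts of 7 pairs of carriers in each mouse, with a point per mouse and a bar at the mean of the 4 mice of each genotype. The first 5 pairs show no overlap between genotypes and the last 2, Slc25a33 to Slc25a36 and Slc25a39 to Slc25a40, overlap.

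Carriers work with other proteins of the mitochondrial membranes, which were taken from listed genes chosen with earlier results of these data known. Both subunits of the mitochondrial pyruvate carrier, which is not a Slc25 protein, were lower, with log2 fold changes of -0.76 for Mpc1 and -0.86 for Mpc2 (adjusted p = 5.54e-05 and 5.43e-06). With Sfxn5, at -0.75, they made 3 of 9 tested inner membrane transporters and related proteins past both thresholds, all lower. Sfxn5 had only 62 to 150 counts per mouse and overlapping groups (edgeR, adjusted p = 0.0189), whereas the groups of Mpc1 and Mpc2 did not overlap. Of all tested genes, 7.85% were lower and 12.9% higher at both thresholds. Sfxn1 and Sfxn3 were higher and Mtch2 (-0.18) was lower at the adjusted p alone. The outer membrane porins, through which solutes reach the carriers, were all lower at the adjusted p, beside 21.7% of all tested genes. Their log2 fold changes were -0.68 for Vdac1, -0.44 for Vdac2 and -0.71 for Vdac3. Of the porins, 2 passed both thresholds, beside 7.85% of all tested genes, against 0 porins with library size alone.

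Enzymes of shuttles and of carnitine metabolism were examined next. Mdh1, Mdh2, Got1 and Got2 belong to the malate-aspartate shuttle. Gpd1 and Gpd2 belong to the glycerol phosphate shuttle, which uses no Slc25 carrier. All 6 shuttle enzymes were lower at the adjusted p and 4 past both thresholds, beside 21.7% and 7.85% of all tested genes, and 2 of them kept both thresholds with library size alone. The 4 were at log2 fold changes of -0.66 for Mdh1, -0.73 for Mdh2, -1.13 for Gpd1 and -0.99 for Gpd2. Of 4 carnitine enzymes, Cpt1b (-0.94), Crat (-0.98) and Cpt2 (-0.60) were lower past both thresholds, beside the 7.85% of all tested genes. Cpt1a, the liver form, was instead higher at the adjusted p alone (0.55, adjusted p = 0.00925).

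Of the factors that convey carriers to the inner membrane, none of 7 passed both thresholds. Tomm70a, Timm9, Timm29 and Agk were lower at the adjusted p, with log2 fold changes from -0.52 to -0.16, beside 21.7% of all tested genes. Timm10, Timm10b and Timm22 were not past it. The mitochondrial creatine kinase of muscle, Ckmt2, which takes ATP from the ADP/ATP carrier, was lower by a log2 fold change of -0.87. Its paralogue Ckmt1 had 0 to 4 counts in controls and 41 to 86 in mutants.

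Among regulators of mitochondrial genes, Ppargc1a (-1.63), Ppara (-1.98), Esrra (-0.70) and Ppard (-0.58) were lower and Ppargc1b was not past the threshold (-0.37, adjusted p = 0.139). The 4 lower regulators passed both thresholds, beside 7.85% of all tested genes. With library size alone, 2 of these regulators kept both thresholds. The letters AAGGTCA, the half-site bound by estrogen-related receptors, were searched on either strand in RefSeq promoter windows of 300 bases, from 250 before to 50 after the start of transcription (GRCm38.p6). They were found in 1 of 48 windows of the 38 members with a window, that of Slc25a34, a share of 2.08%, beside 4.72% of 32851 windows of all genes.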

How the data were processed

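Soleus RNA of 4 control and 4 Dnm2 +/K562E mice was sequenced. Gene counts were deposited by the authors as raw, unnormalised counts, 1 table per mouse. According to the study's methods and processing notes, reads were trimmed with Trimmomatic 0.33 and aligned with STAR 2.5.1b to GRCm38.p5. They were counted with featureCounts, with a minimum overlap of 10 bp and a minimum mapping quality of 10. The methods state that multi-mapping reads were counted, by primary alignments only, and that reads overlapping several genes were counted as well. The labels name a stranded total RNA kit and the methods a poly A kit, and neither states whether counting used strand. The genes that overlap Slc25a11, Slc25a35 and Ucp2 are given above. On the opposite strand, Naif1 overlaps Slc25a25 over 379 bases, Lrig1 overlaps Slc25a26 over 144 and B930094E09Rik overlaps Slc25a46 over 383. Their log2 fold changes were -0.24, -0.16 and 0.38 (edgeR, adjusted p = 0.167, 0.0863 and 0.494). The untested Slc25a18 and Slc25a21 overlap Atp6v1e1 and Pax9. One sample description spells the mutation differently from its title, and groups follow the titles.

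Gene symbols came from GENCODE M21, which matched 22647 of 22880 identifiers. Genes passing edgeR's filterByExpr (minimum count 10, minimum total 15) were fitted with edgeR 4.0.16 (TMM factors, quasi-likelihood F-test, genotype only), with Benjamini-Hochberg adjustment over all 14001 tested genes. Calls required an adjusted p under 0.05 and an absolute log2 fold change of at least 0.58. The standard error is the log2 fold change divided by the square root of F. Levels per kilobase used the length of the principal transcript. Ratios within a mouse had 0.5 counts added to both genes and were compared with exact two-sided permutation tests. In simulated counts of 4 against 4 mice, with 13878 genes tested, 92.5% of 200 genes given a true log2 difference of 1.5 were recovered, and 5 of 190 calls were of unchanged genes. No tested carrier differed by as much, the largest being Ucp2 at 1.38, and recovery of smaller differences was not simulated. The simulation changed far fewer genes than differed between the genotypes and did not test the scaling.

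Per-mouse values are given for called carriers, members of the pairs and the 5 most abundant carriers, and the others by fold change, range or count. The members, lists and pairs were chosen with earlier results of these data known. The values of 1 tested carrier are not reported here, though it stays in the fits and counts. Mouse numbers of titles and of descriptions differ in part, and samples with the same number did not deviate together, with correlations of -0.213 to 0.00949 for title numbers and -0.167 to 0.178 for description numbers, so they were not treated as pairs. Replicates differed beyond sampling noise in every pair of mice (chi-square per degree of freedom of at least 13). Alternatives were the edgeR exact test, DESeq2 1.42.0, other scalings and filters, replicate blocks and leaving out each mouse. Depth sets a counting floor of 3 counts, at most 0.0898 CPM as a share of total counts, without TMM factors.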

Additional observations from a re-analysis of the deposited data

Results flagged for a closer look

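In 5 of 96 groups of 4 mice examined, counting the 41 tested carriers and the 7 ratios in both genotypes, 1 mouse stood apart by Dixon's criterion at 95%, which chance meets in about 1 of 20 groups. Slc25a22 was at 134.3 CPM in control 1, beside 28.4 to 44.0 CPM in the other controls. Slc25a20 was at 90.8 CPM in mutant 3, beside 80.2 to 82.0 CPM in the other mutants. Slc25a47 was at 3.74 CPM in the same mouse, beside 4.43 to 4.51 CPM. Slc25a40 was at 5.55 CPM in mutant 2, beside 3.94 to 4.03 CPM in the other mutants. Slc25a39 was at 53.6 CPM in control 4, beside 51.2 to 51.5 CPM, a small gap in a narrow group.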

How the results depend on the processing

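No result changed direction while past its threshold under any alternative. Of the single carriers' values under the alternatives, 708 of 738 kept their side of the thresholds, 15 lost a call and 15 gained one. In 21 of the 708 the sign changed, in 12 carriers that were not called. With library size alone, 1 carrier was lower (against 6), the median log2 fold change of the tested carriers was -0.01 (-0.008239), and the called genes numbered 0 among the porins, 2 among the shuttle enzymes and 2 among the regulators, where the median of all tested genes was 0.22 in place of 0.01. Without a fold change threshold, 17 carriers were lower, against 6. The values are the same as in the main fit there. These gains, counted among the 15, therefore follow from dropping the threshold, and no call could be lost. Leaving out 1 mouse gave 5 to 7 lower and 2 to 3 higher carriers and a median of -0.298 to -0.162. Among the inner membrane transporters it gave 2 to 5 called genes, with 5 without control 4.

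With the mouse number as a replicate block, 6 carriers were lower and 3 higher for both numberings, and 13 (titles) or 15 (descriptions) were lower at the adjusted p alone, against 17. In the ratios, the block by title number left the differences at -0.99, -1.36, 0.67, -1.54 and -1.83 in the order given above of Slc25a4 to Slc25a5, Slc25a12 to Slc25a13, Slc25a37 to Slc25a28, Ucp3 to Ucp2 and Slc25a23 to Slc25a24, with an adjusted p of 0.175, since sign flips in 4 pairs cannot give a p under 0.125. Leaving out 1 mouse, these differences ranged from -1.05 to -0.899, -1.44 to -1.21, 0.566 to 0.775, -1.77 to -1.21 and -1.93 to -1.67, with an adjusted p of 0.08, since 4 against 3 mice cannot give a p under 0.0571. Adding 5 counts in place of 0.5 changed no call among the ratios. The longer motif TCAAGGTCA was in 0% of the carriers' promoter windows, beside 0.423% of all. Depth limits Slc25a13 most among the called carriers, with 78 to 159 counts, while the largest SE, that of Slc25a25, came with 362 to 1849 counts.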

Other observations

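Carriers were also set against complex I of the respiratory chain, as the log2 ratio of a carrier to the summed counts of 37 complex I subunits in each mouse, a comparison chosen after the values were seen. All 37 subunits were lower in Dnm2 +/K562E muscle at the adjusted p, beside 21.7% of all tested genes, with a median log2 fold change of -0.64. The ratios of Slc25a4, Slc25a12 and Slc25a11 to complex I differed between genotypes by -0.10, -0.04 and -0.02, with overlapping groups in all 3. Slc25a39 was higher relative to complex I in every mutant, with log2 ratios of -6.80 to -6.60 beside -7.46 to -7.21 in controls. Its own log2 fold change was -0.03, and any gene that did not differ would give such a ratio where the subunits are lower. Slc25a3, Slc25a25, Slc25a20 and Slc25a23 differed by -0.17, -0.42, 0.22 and 0.11, with overlapping groups in each.

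Control 1 held the highest control value in 17 of the 41 tested carriers, beside 30.1% of all tested genes, Ucp3 (242.3 CPM), Slc25a22 (134.3 CPM), Slc25a34 (83.9 CPM) and Slc25a42 (72.3 CPM) among them. Without control 1, 5 carriers were lower and 3 higher at both thresholds. Apart from Ucp3 with Ucp2 and Slc25a29 with Slc25a47, 3 pairs of carriers lay within 20 kb of each other. Slc25a41 and Slc25a23 on chromosome 17 were 2056 bases apart, Slc25a54 and Slc25a24 on chromosome 3 were 6461 bases apart, and Slc25a43 and Slc25a5 on chromosome X were 18448 bases apart. In each of these 3 pairs the first gene had at most 11 counts in any mouse.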
